A study of Mus musculus with 2 samples.

Results

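The 9 genes described here, Gata1, Zfpm1, Klf1, Klf13, Klf3, Lmo2, Ldb1, Nfe2 and Gfi1b, encode transcription factors and cofactors of the red cell lineage other than Tal1. They were chosen by symbol from the 27998 genes listed in the count table, and each symbol matched 1 row. Their levels were read in erythroid cells ordered by the surface antibodies against Ter119 and CD71, and in the non-erythroid cells of the same tissue.

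The data are 1 CITE-seq experiment, in which the transcripts and the surface proteins of single cells are counted together. Fetal livers of C57BL/6 mouse embryos at e13.5 were pooled, Ter119-positive cells were removed with magnetic beads, and as many of them as there were Ter119-negative cells were then returned, so the mix of stages was set by this step. There was no genetic change and no treatment, and the cDNA library and the antibody library came from the same 7863 cells, whose barcodes all occurred in both. With 1 library there is no replicate, so no test was made. The intervals of levels and ratios are 95% intervals for counting error only. Those of shares of cells are 95% intervals that take each cell as 1 draw, although cells are not replicates. Both kinds leave out any spread among embryos, libraries or choices of gate.

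Ter119 is an erythroid surface protein that appears late, and CD71 is the transferrin receptor, which takes up iron and is highest in the middle of the series. Cells without high counts of 5 lineage antibodies were split by these antibodies into 6 stages. S0-low (1384 cells), S0-medium (1009 cells) and S1 (604 cells) had low Ter119 and rising CD71. S2 (1261 cells) had intermediate Ter119 and high CD71, S3 (828 cells) had high Ter119 and high CD71, and S4/S5 (866 cells) had high Ter119 and lower CD71. The limits between stages were set from the antibody counts of these cells and stand in for the study's own gates. The non-erythroid cells were 4 clusters named from marker genes: megakaryocyte-like (348 cells), hepatocyte-like (184 cells), myeloid-like (113 cells) and macrophage-like (81 cells).

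GATA1 is the zinc finger protein that directs erythroid and megakaryocytic gene expression, and FOG1, the product of Zfpm1, is the cofactor that it needs for much of this work. KLF1 activates the adult globin genes and many other red cell genes through CACCC elements, and KLF3, whose gene is a known target of KLF1, mostly represses genes that carry the same element. LMO2 and LDB1 are bridging proteins without DNA binding of their own that hold GATA1 and TAL1 at GATA and E-box sites. NFE2 pairs with small MAF proteins at elements of the globin locus control regions and is also needed for platelet formation, and GFI1B is a repressor that works with the KDM1A and RCOR1 corepressor complex.

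RefSeq places all 9 genes on the GRCm38.p6 assembly, whose build, mm10, is the one named for the counts. Gata1 lies at chrX:7959260-7976663, Zfpm1 at chr8:122281856-122337862, Klf1 at chr8:84901982-84905291, Klf13 at chr7:63886351-63938915 and Klf3 at chr5:64803521-64832901. Lmo2 lies at chr2:103957903-103981878, Ldb1 at chr19:46031525-46048145, Nfe2 at chr15:103248212-103258403 and Gfi1b at chr2:28609450-28621982. RefSeq also lists other genes that overlap Gata1, Zfpm1, Klf13, Klf3, Lmo2 and Gfi1b, and how reads in such overlaps were assigned was not given in the sources used here. The RefSeq tables hold 9 promoter windows for 7 of the genes, with 3 of them for Ldb1. The stretch of 250 bases before the start site of each window was searched on both strands for short motifs. These were GATAA, a form of the core that GATA factors bind, and CACCC, the core of KLF sites. The others were CAGNTG, the E-box core bound by TAL1 partners, and TGAGTCA, a core of NF-E2 sites. A window was counted once for each motif it held, and 1 window may hold several of them. CACCC was found in 9 of the 9 windows, beside 52.0% of the 32851 windows of all genes. GATAA was found in 3 of the 9, in Klf1, Gfi1b and 1 of the Ldb1 windows, beside 22.6% of all windows. CAGNTG was found in 3, beside 44.8%, and TGAGTCA in 0, beside 4.46%.

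The stretches of Gata1, Klf1 and Gfi1b are shown because GATAA is absent from the first and present in the other 2. They are written 5′ to 3′ on the strand of the gene, with GATAA and CACCC, or their complements TTATC and GGGTG, in capitals. A match is a match of letters and was not tested for binding. GATA followed by a base other than A, which the Gata1 stretch holds, was not counted or marked. The stretch of Gata1 lies within the span of its gene given above, while the other 2 adjoin their genes. The stretches lie at chrX:7967911-7968160 on the minus strand, chr8:84901732-84901981 on the plus strand and chr2:28621983-28622232 on the minus strand.
Gata1: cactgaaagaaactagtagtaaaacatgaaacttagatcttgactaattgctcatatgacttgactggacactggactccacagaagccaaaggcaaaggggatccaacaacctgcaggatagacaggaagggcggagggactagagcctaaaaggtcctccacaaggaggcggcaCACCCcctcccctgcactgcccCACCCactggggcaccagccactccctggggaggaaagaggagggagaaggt
Klf1: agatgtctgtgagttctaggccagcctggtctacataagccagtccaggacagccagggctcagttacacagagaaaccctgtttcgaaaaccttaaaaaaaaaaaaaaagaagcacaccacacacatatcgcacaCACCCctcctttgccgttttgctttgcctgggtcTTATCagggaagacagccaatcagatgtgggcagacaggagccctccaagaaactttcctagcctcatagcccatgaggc
Gfi1b: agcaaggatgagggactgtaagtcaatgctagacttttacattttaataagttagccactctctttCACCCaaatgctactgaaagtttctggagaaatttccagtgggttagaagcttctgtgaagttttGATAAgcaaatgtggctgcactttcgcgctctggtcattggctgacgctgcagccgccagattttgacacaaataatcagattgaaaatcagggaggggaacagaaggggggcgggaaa

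The cells held 58606632 unique transcript counts (UMIs), with a median of 5707 per cell and a range of 2510 to 38047. After the limits on genes and mitochondrial UMIs and the removal of 128 called doublets, 7244 cells were kept. Depth differed between the stages, from a median of 10283 UMIs per cell in S0-medium to 3949 in S4/S5. Globin transcripts took 1.08% of the UMIs in S0-low, 13.3% in S2, 38.6% in S3 and 64.9% in S4/S5. For this reason each level is given as the mean over cells of the CPM (UMIs of the gene scaled to 1e+06 UMIs in each cell), and where it matters also as the non-globin CPM, in which the UMIs of the globin genes are left out of the total. On the CPM scale alone, a lower level of a gene cannot be told apart from a higher level of the globins in the same cells.

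The summed CPM of the 9 erythroid markers found was 1730 in S0-low, 4018 at S0-medium, 6533 at S1 and 18345.2 at S3, beside 885.5 in the non-erythroid cells. The summed CPM of the 10 markers of each other blood cell type stayed low in the 6 stages, at 42.5 to 92.04 for megakaryocyte markers beside 7975 in megakaryocyte-like cells, 83.9 to 590 for myeloid markers beside 71128.6, and 11.8 to 56.1 for macrophage markers beside 15562.3. Some cells stood apart from the rest of their stage, and some of the results that rest on them are given with and without them. The 2 clusters led by Rpgrip1 (1325 cells, median of 5371 UMIs) held 39.8% of S0-low, 45.7% of S0-medium, 26.5% of S1 and 6.66% of S2. S0-low also held 280 cells (20.2%) of the named non-erythroid clusters, 89 of them hepatocyte-like and 188 from the cluster named megakaryocyte-like. These 188 are among the 192 cells of that cluster with lineage antibody counts at or below the limit, whose low CD41 and Pf4, given with the non-erythroid cells, go against that name. Without the 280 cells, the summed CPM of the 10 hepatocyte markers in S0-low was 264 in place of 6244, that of the megakaryocyte markers 67.86 in place of 85.85, and that of the myeloid markers 628.6 in place of 589.8, beside 83.91 in S0-medium. S0-low held 233 cells of the cluster led by Ifitm1 and Cd34 and 53 of the cluster led by Lsp1, of which S0-medium held 3 and 2. The cluster led by Hbb-y and Hba-x, which are embryonic globin genes, held 402 cells (46.4%) of S4/S5 and 68 cells (8.21%) of S3.

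All 9 genes were well covered, with 3170 UMIs for Ldb1 to 25962 UMIs for Klf1 in the kept cells. In the stages from S0-low to S3 the counting interval of a member's CPM reached at most 24.7% above its value, for Ldb1. In S4/S5 it reached at most 46.5% above, again for Ldb1, and 6.3% for Lmo2.

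Gata1 was highest in the middle stages in CPM and lower at both ends. Its mean CPM was 135 in S0-low, 197 at S0-medium, 201 at S1, 222 at S2, 180.2 at S3 and 69.1 at S4/S5. The levels of S0-medium and S1 lay within counting error of each other, as did those of S0-medium and S3, and S2 was 3.21 times S4/S5 (interval 2.8 to 3.7). In non-globin CPM the highest stage was S3, with 303, and the lowest was S0-low, with 136, a ratio of 2.22 (2.01 to 2.45). After each cell was thinned to 2500 UMIs, at least 1 Gata1 UMI was seen in 27.6% of S0-low cells, 42.9% of S2 cells (interval 40.2 to 45.7) and 14.5% of S4/S5 cells (12.3 to 17.1), beside 3.26% of hepatocyte-like cells (1.21 to 6.96), which should lack it. Before thinning these shares were 51.9%, 71.4%, 21.6% and 10.9%, at median depths of 5992, 6010, 3949 and 12969 UMIs. The 2500 UMIs still included those of the globins, so the shares are not free of the globin level. In non-globin CPM S4/S5, at 180.6 (156.7 to 209.4), stood above S0-low, at 136.4 (128.5 to 146.2).

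Zfpm1 was highest in S0-medium in CPM and lowest in S4/S5. Its CPM was 74.9 in S0-low, 94.6 at S0-medium, 84.4 at S1, 82.5 at S2, 63.3 at S3 and 27.1 at S4/S5. The levels of S0-medium, S1, S2 and S0-low were each within counting error of the next in that order. The ends of this order differed, with S0-medium at 1.26 times S0-low (1.13 to 1.41), or 1.47 times (1.29 to 1.69) without the clusters led by Rpgrip1. The non-globin CPM of S3 was 105 and that of S0-medium 96.6, with S2 between them. Set against Gata1 in the same cells, which is free of the denominator, Zfpm1 had 0.538 UMIs per Gata1 UMI in S0-low (interval 0.494 to 0.587), 0.495 at S0-medium, 0.435 at S1, 0.367 at S2 and 0.349 at S3 (0.305 to 0.399). The share of the cofactor was thus lower at S3 than at S0-low, with intervals that do not overlap, and stood at 0.408 (0.322 to 0.513) in S4/S5. Because 3′ capture differs between genes, such a ratio is read across stages and not as the ratio of 2 proteins.

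Klf1 had the most UMIs of the 9 genes and the largest difference between S0-low and S0-medium. Its CPM was 283 in S0-low, 531 at S0-medium, 638 at S1, 787 at S2, 700.1 at S3 and 262 at S4/S5. Only the 2 end stages were within counting error of each other. Its non-globin CPM went from 287 in S0-low to 1201 in S3, a ratio of 4.18 (3.94 to 4.43), and then to 659 in S4/S5. Thinned cells with a Klf1 UMI made up 43.9% of S0-low (41.2 to 46.5) and 81.8% of S2 (79.5 to 83.9), beside 9.78% of hepatocyte-like cells (5.9 to 15.0). The unthinned shares were 64.1%, 94.8% and 21.7%.

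Klf3 had its highest CPM in S3, a stage later than Klf1. In non-globin CPM both were highest in S3, Klf3 at 459 and Klf1 at 1201, so the lag was seen in CPM only. The CPM of Klf3 was 62.6 in S0-low, 92.5 at S0-medium, 106 at S1, 197 at S2, 253 at S3 and 121 at S4/S5. The largest step upward was from S1 to S2, at 1.86 times (1.66 to 2.08), and S3 stood 4.04 times above S0-low (3.6 to 4.53), or 7.15 times (6.36 to 8.05) in non-globin CPM. From S3 to S4/S5 the CPM fell to 0.477 times (0.423 to 0.536). For each Klf1 UMI there were 0.191 Klf3 UMIs in S0-low (0.175 to 0.208), 0.151 at S0-medium (0.14 to 0.162) and the same 0.151 at S1, then 0.216 at S2, 0.335 at S3 and 0.449 at S4/S5 (0.401 to 0.504). Per Klf1 transcript the repressor was therefore counted less often in S0-medium than in S0-low, and more often at each stage after S1. Klf3 was also present outside the lineage, as described with the non-erythroid cells.

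Klf13, a widely expressed member of the KLF family, was highest in S1 and low in the last stages. Its CPM was 77.1 in S0-low, 80.5 at S0-medium, 97.0 at S1, 76.5 at S2, 26.0 at S3 and 9.97 at S4/S5. The step from S2 to S3 was 0.34 (0.277 to 0.415), and in non-globin CPM it was 0.436 (0.347 to 0.543). Per Klf1 UMI there were 0.206 Klf13 UMIs in S0-low (0.189 to 0.223), 0.113 at S0-medium, 0.126 at S1, 0.108 at S2, 0.0461 at S3 and 0.0443 at S4/S5 (0.0319 to 0.0602). Without the clusters led by Rpgrip1 this ratio was 0.217 in S0-low, 0.0761 at S0-medium (0.0676 to 0.0855), 0.107 at S1 (0.0953 to 0.119) and 0.102 at S2. S0-medium was then below S1, with intervals that do not overlap. After thinning, 2.31% of S4/S5 cells (1.42 to 3.54) had a Klf13 UMI, fewer than the 8.7% of hepatocyte-like cells (5.05 to 13.7), and 4.5% and 32.6% had one before thinning. These shares include the globin UMIs in the total. In non-globin CPM Klf13 was 31.4 (21.3 to 47.5) in S4/S5 and 42.3 (32.5 to 56.0) in hepatocyte-like cells, with intervals that overlap.

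The Klf13 CPM moved with the clusters led by Rpgrip1 within S0-medium, S1 and S2. Within S0-medium it was 116 CPM in these clusters and 50.4 CPM in the other cells outside the named clusters, a ratio of 2.3 (1.91 to 2.78). In UMIs per cell the ratio was 1.27 (1.09 to 1.49), at median depths of 5689 and 13260 UMIs. The CPM ratio was 1.84 (1.46 to 2.3) within S1 and 1.91 (1.42 to 2.52) within S2. In UMIs per cell it was 1.13 (0.925 to 1.38) within S1, which is within counting error, and 1.39 (1.07 to 1.79) within S2. Within S0-low the ratio was 1.14 (0.936 to 1.39) in CPM, or 0.843 (0.707 to 1) in UMIs per cell. Klf1 and Lmo2 were lower in the 84 such cells of S2, at 0.63 (0.548 to 0.72) and 0.658 (0.554 to 0.776) in CPM. In the 551 such cells of S0-low Klf1 was at 1.72 (1.58 to 1.88) and Lmo2 at 1.04 (0.956 to 1.13), so neither was lower there in CPM. Gata1 was at 1.66 (1.46 to 1.89), Zfpm1 and Klf3 at 1.77 and Gfi1b at 1.78 in S0-low. Per cell, Klf1 was at 0.843 (0.782 to 0.909), Gata1 at 0.857 (0.764 to 0.961) and Zfpm1 at 0.852 (0.729 to 0.996) there, so these genes turned with the scale. Lmo2 was lower per cell, at 0.655 (0.608 to 0.705). Klf3 at 1.03 (0.868 to 1.23) and Gfi1b at 0.931 (0.791 to 1.09) did not differ beyond counting error per cell. The part of depth in these differences was not tested.

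**Figure D1:**
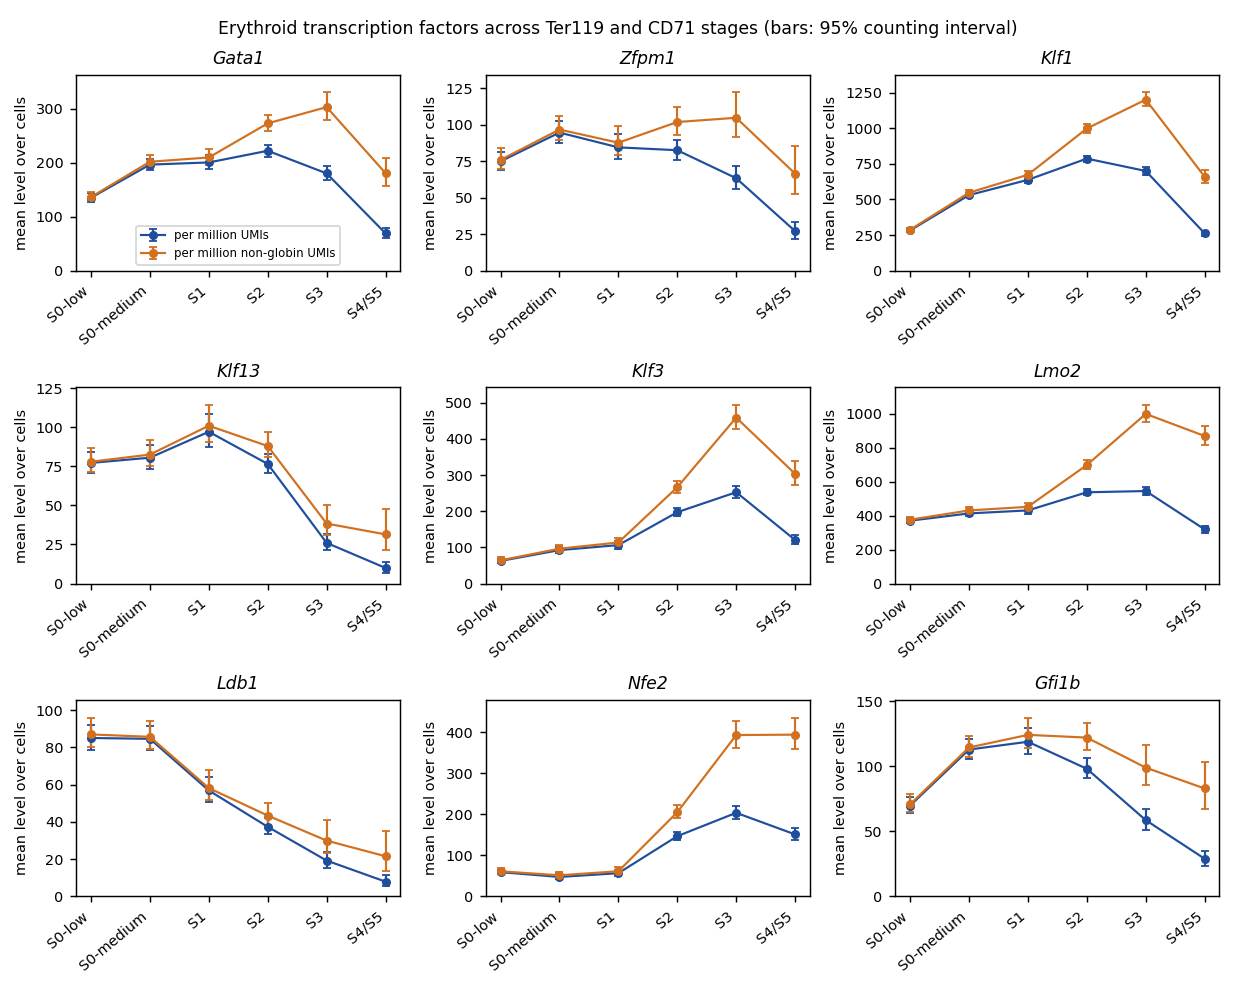
Mean level of the 9 genes in the 6 stages, from S0-low to S4/S5, in CPM (blue) and non-globin CPM (orange), with bars for the 95% counting interval. The scales part from S2 onward, as at S3 for Klf1, which had a CPM of 700.1 and a non-globin CPM of 1201, and Ldb1 and Klf13 are the 2 genes with their lowest level in S4/S5 and a lower value at each stage after S1 on both scales.

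The transcripts of the 2 bridging proteins parted. Lmo2 CPM was 371 in S0-low, 413 at S0-medium, 431 at S1, 538 at S2, 545 at S3 and 319 at S4/S5, and S2 and S3 were within counting error. Its non-globin CPM was 377 in S0-low and 870 in S4/S5, and in S3 it was 2.66 times that of S0-low (2.5 to 2.82). Ldb1 CPM was 85.1 in S0-low, 84.6 at S0-medium, 56.9 at S1, 37.4 at S2, 19.3 at S3 and 7.93 at S4/S5. S0-low and S0-medium did not differ beyond counting error, and each later stage was below the one before it in CPM. Without the clusters led by Rpgrip1, S0-medium was 1.18 times S0-low (1.03 to 1.35), at 82.0 and 69.5 CPM.

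Ldb1 was lower in S3 than in S0-low on both scales, at 0.226 (0.18 to 0.282) in CPM and 0.344 (0.264 to 0.444) in non-globin CPM. The ratio of Ldb1 to Lmo2 UMIs, a pair added after the values were seen, was 0.225 in S0-low (0.209 to 0.242), 0.214 at S0-medium, 0.142 at S1, 0.0871 at S2, 0.054 at S3 and 0.0318 at S4/S5 (0.0222 to 0.0443). Without the clusters led by Rpgrip1 it was 0.194 (0.176 to 0.213) in S0-low and 0.207 (0.19 to 0.226) at S0-medium, with intervals that overlap. It was then 0.139 at S1 and 0.0272 in S4/S5, so the fall after S0-medium was also seen there. In S4/S5 the thinned share of cells with an Ldb1 UMI, 2.08% (1.24 to 3.27), could not be told apart from the 1.63% (0.338 to 4.69) of hepatocyte-like cells, with unthinned shares of 3.58% and 15.2%.

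Nfe2 was low in the early stages and high in the late ones. Its CPM was 59.1 in S0-low, 47.4 at S0-medium, 56.6 at S1, 147 at S2, 204 at S3 and 151 at S4/S5. The step from S1 to S2 was 2.59 times (2.23 to 3.02), the largest step upward of any member between neighbouring stages in CPM. The non-globin CPM was 393 in S3 and 394 in S4/S5, which did not differ beyond counting error. Set against Gata1, another pair added after the values were seen, there were 0.4 Nfe2 UMIs per Gata1 UMI in S0-low, 0.221 at S0-medium, 0.238 at S1, 0.532 at S2, 0.967 at S3 and 1.92 at S4/S5 (1.65 to 2.24). Without the clusters led by Rpgrip1 the ratio in S0-low was 0.494 (0.442 to 0.552).

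Gfi1b was highest in S0-medium and S1. Its CPM was 69.9 in S0-low, 113 at S0-medium, 119 at S1, 98.2 at S2, 58.7 at S3 and 29.0 at S4/S5. S0-medium and S1 were within counting error of each other, and S1 was 4.11 times S4/S5 (3.34 to 5.09). On the non-globin scale each stage lay within error of the next in order, from 124 in S1 down to 70.9 in S0-low, while these ends differed by 1.755 times (1.555 to 1.98). Relative to Gata1, in the third pair added after the values were seen, it went from 0.484 in S0-low (0.443 to 0.529) to 0.641 in S0-medium (0.596 to 0.688), 0.617 in S1, 0.417 in S2 and 0.325 in S3 (0.283 to 0.373), and stood at 0.458 (0.365 to 0.571) in S4/S5.

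**Figure D2:**
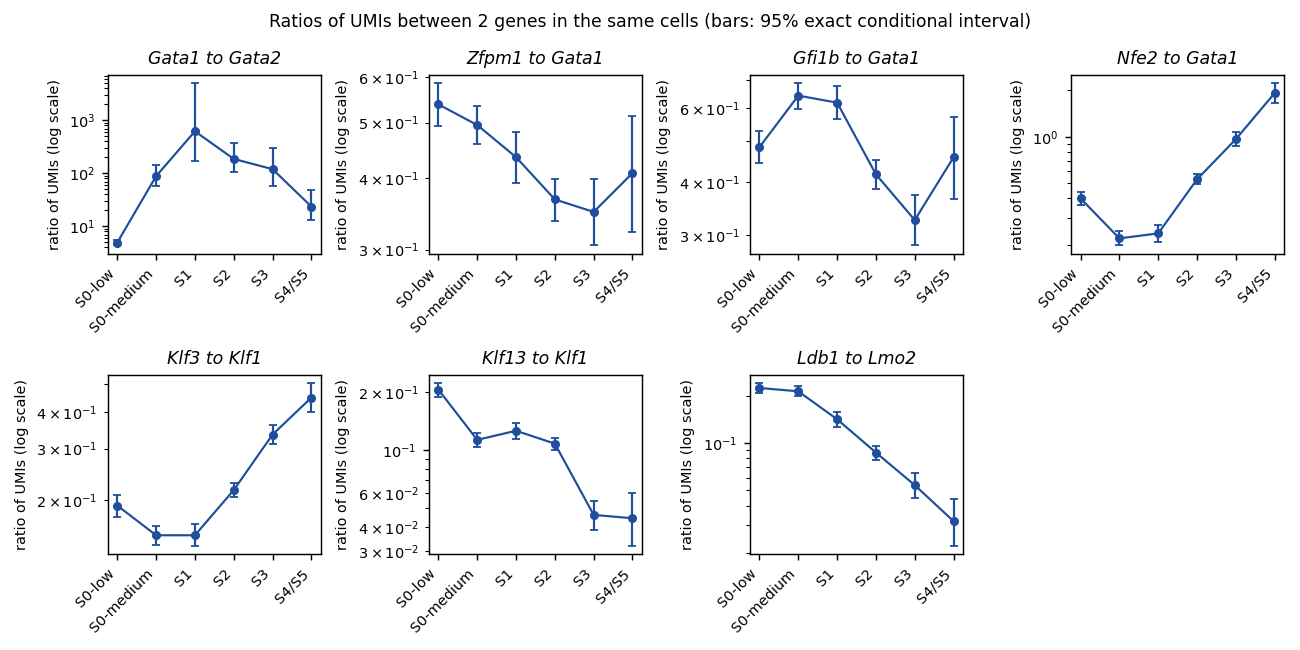
Ratio of the summed UMIs of 2 genes in the same cells, on a log scale, in each stage, with bars for the 95% exact conditional interval. Klf3 per Klf1 is 0.191 in S0-low and goes from 0.151 in S1 to 0.449 in S4/S5 and Nfe2 per Gata1 from 0.238 to 1.92, while Ldb1 per Lmo2 goes from 0.142 to 0.0318.

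A gene counted as called in a comparison when its level differed by 1.5-fold or more and it had at least 100 UMIs in the 2 populations together. From S0-low to S0-medium, 2 members were called higher, Klf1 at 1.88 times (1.78 to 1.98) and Gfi1b at 1.62 times (1.45 to 1.8), and 0 lower. Of the 8464 genes with enough UMIs there, 4.84% were called higher and 15.0% lower. Gata1 and Klf3 stood just under the limit, at 1.45 (1.34 to 1.58) and 1.48 (1.3 to 1.67). Without the clusters led by Rpgrip1, 4 members were higher, beside 8.59% of all genes: Klf1 at 2.76, Gfi1b at 2.3, Gata1 at 1.81 and Klf3 at 1.76. Without the named non-erythroid cells Klf1 was at 1.71 and Gfi1b at 1.52, beside 4.00% of all genes.

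From S0-medium to S1, 0 members were called, beside 11.4% of all genes in either direction. The largest difference was that of Ldb1, at 0.672 (0.584 to 0.773). Without the clusters led by Rpgrip1 it was 0.647 and called lower, beside 10.1% of all genes, and Klf13 was 1.57 times (1.3 to 1.9) and called higher, beside 3.26%. From S1 to S2, Klf3 and Nfe2 were called higher, beside 5.15% of all genes, and Ldb1 lower at 0.657 (0.557 to 0.774), beside 36.9%. Without the clusters led by Rpgrip1, Klf3 was at 1.9 and Nfe2 at 2.7, beside 5.44% of all genes, and Ldb1, at 0.691 (0.583 to 0.82), was not called. The median of all genes was 0.743 on all cells. In non-globin CPM, where the median on all cells was 0.855, Lmo2 was also called higher, from 452 in S1 to 699 in S2. On that scale 3 members were thus called higher, beside 9.55% of all genes. Ldb1, at 58.2 and 43.4, was not called there, and 0 members were lower, beside 24.1%.

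From S2 to S3 the median of all genes was 0.579 in CPM and 65.0% of the genes were called lower. Of the members, 3 were called lower, Klf13, Ldb1 at 0.515 (0.403 to 0.653) and Gfi1b at 0.598 (0.512 to 0.696), and 0 higher, beside 3.81% of all genes. In non-globin CPM, where the median was 0.822, Nfe2 was called higher at 1.92 (1.72 to 2.14) and Klf3 at 1.72 (1.57 to 1.89), beside 10.2% of all genes, and only Klf13 lower, beside 25.9%. Klf1 was at 0.89 in CPM and 1.2 in non-globin CPM and Gata1 at 0.811 and 1.11, so their direction turned with the scale.

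From S3 to S4/S5, 8 members were called lower in CPM, all but Nfe2, beside 73.9% of all genes with a median of 0.527. On the non-globin scale 4 were called lower, Klf1 at 0.549 (0.506 to 0.595), Gata1 at 0.596 (0.506 to 0.699), Zfpm1 at 0.635 (0.486 to 0.823) and Klf3 at 0.661 (0.583 to 0.748), beside 21.1% of all genes. Over the whole course from S0-low to S3 on this scale, 5 members were called higher, Klf3, Nfe2 at 6.43 (5.66 to 7.3), Klf1, Lmo2 and Gata1, beside 15.5% of all genes, and Klf13 and Ldb1 lower, beside 59.8%.

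In UMIs per cell, with no scaling by depth, Gata1, Klf1, Klf13, Lmo2 and Gfi1b were highest in S1, Zfpm1 and Ldb1 in S0-medium, and Klf3 and Nfe2 in S3. S1 and S0-medium lay within counting error for Gata1, Lmo2, Gfi1b and Zfpm1, as did S3 and S2 for Klf3. Without the clusters led by Rpgrip1, S1 over S0-medium was 0.917 (0.868 to 0.97) for Lmo2 and 0.879 (0.793 to 0.974) for Gfi1b. Both were then higher in S0-medium, and Gata1 at 0.952 (0.877 to 1.03) and Klf1 at 0.988 (0.943 to 1.03) did not differ. Klf13 stayed higher in S1, at 1.39 (1.19 to 1.62). On that scale Ldb1 had the widest span, 21.7 times from S0-medium to S4/S5 (15.55 to 31.18), and Nfe2 the narrowest, 2.301 times from S3 to S0-medium (2.045 to 2.593). The median gene was 0.46 times as high per cell in S3 as in S2, and Klf3 at 1.07 (0.99 to 1.16) and Nfe2 at 1.13 (1.03 to 1.24) were the members not lower there.

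The S4/S5 values joined 2 kinds of cells. In the 402 cells of the cluster led by Hbb-y, globins took 76.2% of the UMIs, and in the other 464 cells 53.8%. The non-globin CPM of Nfe2 was 138 in the cluster and 615 in the other cells, a ratio of 0.225 (0.168 to 0.295). Klf3 was 145 and 441, Klf1 354 and 924, Lmo2 573 and 1127, and Gata1 127 and 227. Klf13, Ldb1 and Gfi1b did not differ beyond counting error on this scale. Without that cluster in either stage, 6 members were called lower in CPM, beside 57.3% of all genes, and Klf3, Lmo2 and Nfe2 were not. On the non-globin scale the S4/S5 level over that of S3 was 1.5 for Nfe2 (1.32 to 1.71), just under the limit for a call, 1.08 for Lmo2, 0.903 for Klf3, 0.722 for Klf1 and 0.707 for Gata1, and only Klf13 and Ldb1 were called lower, beside 21.2% of all genes.

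**Figure D3:**
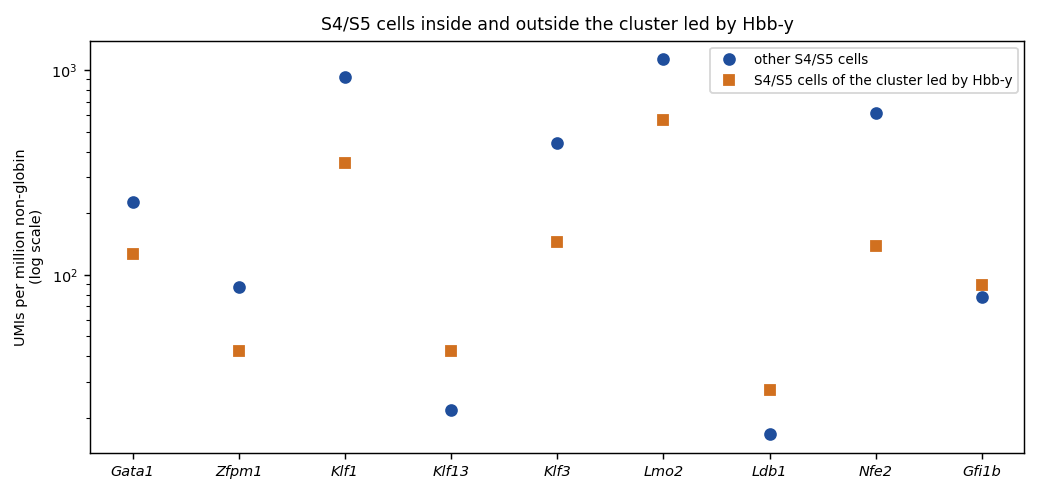
Non-globin CPM, on a log scale, of the 9 genes in the S4/S5 cells of the cluster led by Hbb-y (orange squares) and in the other S4/S5 cells (blue circles). The largest gap is that of Nfe2, with 138 and 615, and the order is reversed for Klf13, Ldb1 and Gfi1b, within counting error.

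In a finer order, several members differed between the lowest CD71 counts and the next. The Ter119-low cells outside the named clusters were ranked by CD71 count and cut into 10 groups of 271 cells. In the group with the lowest CD71 (median of 16 antibody counts), Gata1 was 35.7 CPM (26.0 to 48.9), Klf1 49.3 (38.0 to 64.0), Zfpm1 22.5 (15.4 to 33.0) and Gfi1b 27.7 (19.4 to 39.4). In the next group (median of 64) they were 146, 328, 82.6 and 73.7, with intervals apart from those of the first. Klf3 was 28.4 (19.6 to 40.7) in the first group and 56.5 (44.6 to 71.7) in the second, also with intervals apart. Lmo2 was 323 in the first group (291 to 358) and 369.7 in the second (338.5 to 404.0), and Klf13 was 105 and 76.2. Of the 271 cells of the first group, 204 belonged to the cluster led by Ifitm1 and Cd34, and 29 of the second, so the step moved with the share of that cluster, whose part in it was not tested. The clusters led by Rpgrip1 held 16 cells of the first group and 177 of the second. Without them Gata1 was 28.8 CPM (20.02 to 41.14) in the first and 109.7 (85.85 to 141.9) in the second, Klf1 35.7 (26.2 to 48.7) and 236.8 (201.9 to 279.5), and Zfpm1 18.0 (11.9 to 27.7) and 62.8 (45.3 to 89.1). Gfi1b was then 23.8 (16.1 to 35.0) and 34.0 (21.9 to 55.4), and Klf3 26.1 (17.5 to 38.4) and 38.7 (25.3 to 61.3), each with intervals that overlap. Above the second group Gata1 stayed between 181 and 209.5 CPM, while Klf1 reached 686 in the tenth. Ldb1 was 60.7 (46.6 to 78.3) in the first group, 106 (89.3 to 126) in the second and 52.3 in the tenth. Without the clusters led by Rpgrip1 it was 58.5 (44.3 to 76.5) in the first and 77.4 (58.1 to 105.2) in the second, with intervals that overlap.

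The cells with intermediate and high Ter119 were ranked by Ter119 in the same way, into groups of 316 or 315 cells. The non-globin CPM of Klf1 was 768 in the first group, 1141 in the fifth and 693 in the tenth. Gata1 was also highest in the fifth group, at 338 (297 to 388), with 241 in the first and 171 in the tenth. Nfe2 went from 121 in the first to 471 in the sixth (413 to 541) and Lmo2 from 554 to 1018 there. Klf13 was 112 in the second group and 62.6 in the third. The globin share of the UMIs went from 6.65% in the first group to 61.6% in the tenth.

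**Figure D4:**
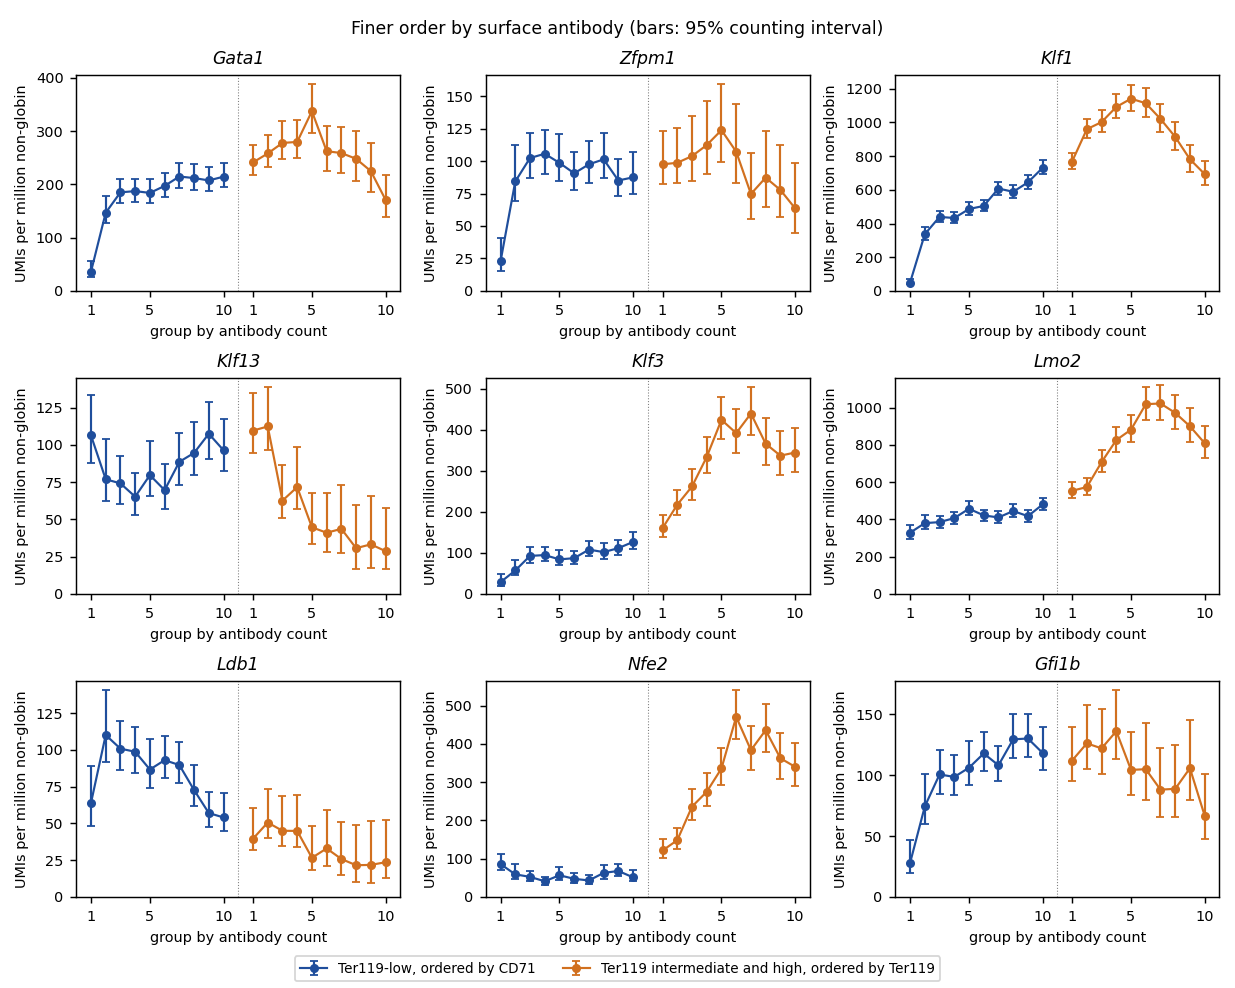
Non-globin CPM of the 9 genes in 10 groups of Ter119-low cells ranked by CD71 (blue) and in 10 groups of cells with intermediate and high Ter119 ranked by Ter119 (orange), with bars for the 95% counting interval. Gata1, Zfpm1, Klf1, Klf3, Lmo2 and Gfi1b are lowest in the first CD71 group, and Gata1 and Klf1 are highest in the fifth Ter119 group, at 338 and 1141.

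Among the non-erythroid cells the levels of the members differed between the cell types. Over all 726 cells, 6 members were called lower than in S0-medium, beside 16.9% of all genes, and Nfe2 was called higher at 1.99 (1.71 to 2.32), beside 25.5%. Lmo2 at 0.715 and Klf13 at 0.989 were not called. These values depend on the mix of cell types, and without the megakaryocyte-like cells Nfe2 was at 0.859. The 726 cells include 192 cells of the megakaryocyte-like cluster whose markers go against its name. Without these 192 cells, 8 members were called in either direction, beside 51.1% of all genes.

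Over all 348 cells of the megakaryocyte-like cluster Gata1 was 1.02 times its level in S0-medium (0.915 to 1.13), with a counting interval of 183 to 219 CPM. Zfpm1 was 108 CPM (1.14 times, 0.987 to 1.32) and Lmo2 523 (1.26 times, 1.18 to 1.35). Klf1 was 180.3 CPM, 0.34 times S0-medium (0.309 to 0.373), and Klf3 30.5, 0.329 times (0.253 to 0.423), beside 11.4% of all genes called lower. Nfe2 was 153, 3.22 times (2.74 to 3.78), beside 18.5% called higher. Over the whole cluster Klf1, Klf3 and Nfe2 were thus the 3 members called, and Gata1 itself did not differ from S0-medium beyond counting error. Gata1 had 2.47 UMIs per Gata2 UMI (2.14 to 2.85) in these cells, beside 4.95 in S0-low, 88.6 at S0-medium (58.3 to 142) and 621 at S1 (172 to 5133), where only 2 Gata2 UMIs were counted. In the later stages it was 187 at S2 (104 to 376), 120 at S3 (58.1 to 300) and 23.6 at S4/S5 (13 to 47.9).

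This cluster was itself mixed. Of its 348 cells, 156 had lineage antibody counts above the limit, with a median of 380.5 CD41 counts and 10764 CPM of Pf4, a platelet chemokine gene. The other 192, of which 188 lay in S0-low, had a median of 13 CD41 counts and 39.4 CPM of Pf4, so their markers go against the name of the cluster. Klf1 was 90.6 CPM (76.5 to 109) in the 156 cells and 253 (228 to 282) in the 192. Nfe2 was 220.3 (192.2 to 253.2) and 97.8 (81.1 to 119), and Zfpm1 135 and 85.9. Ldb1 went the other way, at 47.8 (37.3 to 63.2) and 90.6 (74.3 to 110.9). Gata1 was 227.5 (200.4 to 259.4) and 177.6 (155.5 to 203.5), on either side of the 196.5 of S0-medium, so its level over the whole cluster averaged these parts. Klf3 did not differ beyond counting error between them, at 32.6 and 28.8 CPM.

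The hepatocyte-like cells, which are not blood cells, had 12.6 CPM of Gata1, 27.4 of Klf1, 26.0 of Lmo2, 5.77 of Gfi1b and 11.5 of Nfe2. They had 71.3 CPM of Klf3 (57.1 to 89.5), 0.771 times S0-medium (0.608 to 0.968), and 41.9 of Klf13. After thinning, 14.7% of them had a Klf3 UMI (9.9 to 20.6), beside 14.2% of S0-low cells and 6.03% of megakaryocyte-like cells (3.77 to 9.08), and the unthinned shares were 49.5%, 31.6% and 21.3%. The Klf3 share thus differed between types, and Klf3 in S0-low was not above the level seen in hepatocyte-like cells. In the myeloid-like cells Klf13 was 97.8 CPM, Nfe2 96.1 (72.6 to 127) and Lmo2 155, and Gata1 was 26.1. In the macrophage-like cells Klf13 was 85.6 CPM and Lmo2 128 (97.9 to 168), and Gata1 was 25.6 and Gfi1b 9.22.

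**Figure D5:**
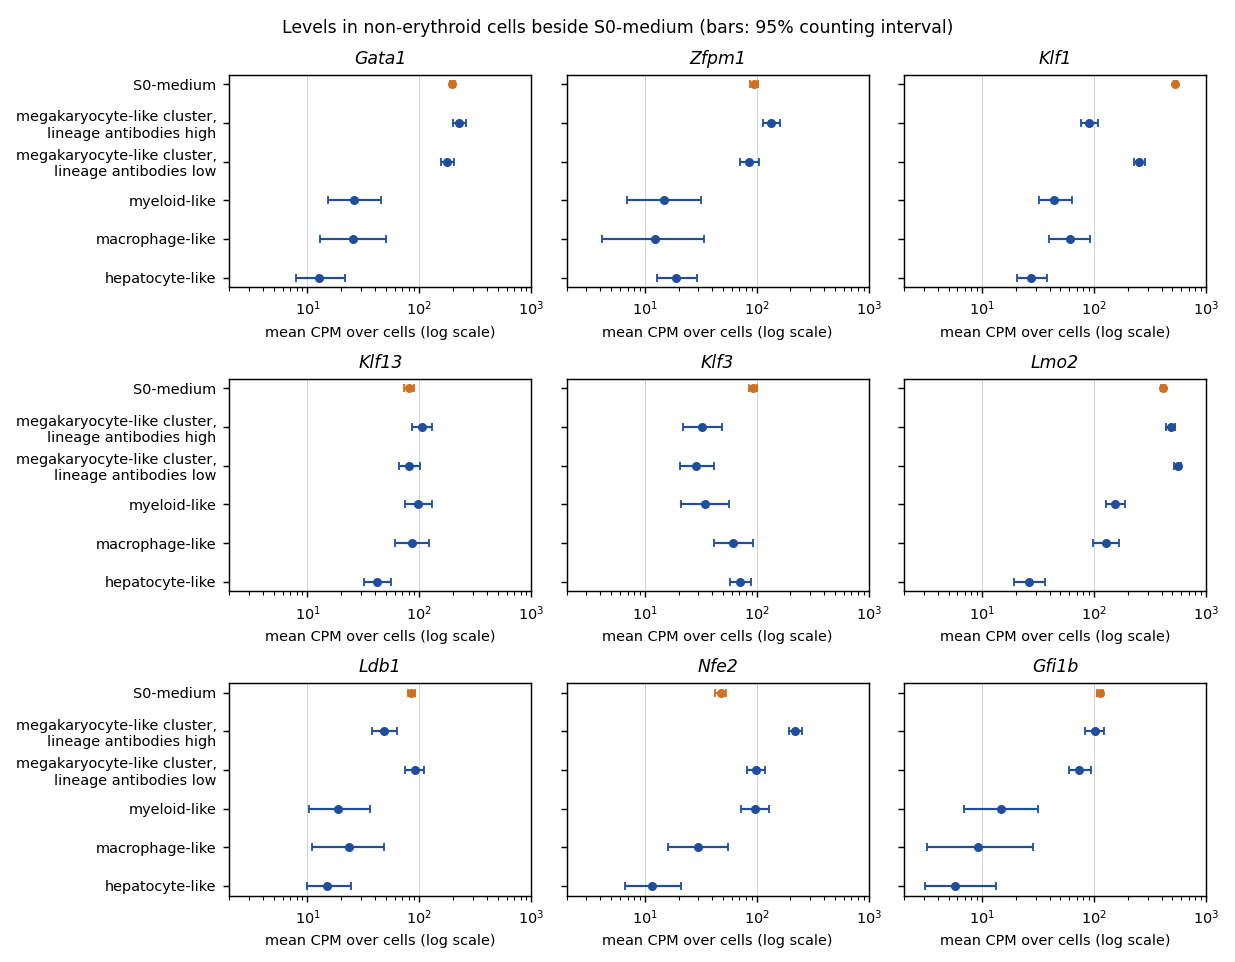
Mean CPM of the 9 genes, on a log scale, in S0-medium (orange) and in the non-erythroid cells (blue), with the megakaryocyte-like cluster divided by their lineage antibody counts, and bars for the 95% counting interval. Gata1 in both parts of the megakaryocyte-like cluster, 228 and 178 CPM, lies near S0-medium, while Klf13 lies between 41.9 and 106 CPM in all of these populations.

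The partners of the LDB1 complex were called in about the shares of all genes. Of the 10 listed genes, S3 over S0-low in non-globin CPM was called higher for 2, lower for 5 and neither for 3, beside 15.5% of all genes called higher and 59.8% called lower, with a median ratio of 0.55 beside 0.543 for all genes. Levels of the listed genes, here and below, are in CPM, while the calls from S0-low to S3 are on the non-globin scale. Because globins fill part of the CPM total at S3, the CPM values do not give the ratios that were called. Tal1, the basic helix-loop-helix partner, was 97.1 CPM in S0-low and 210.2 in S3, and Lyl1, its relative, 129 and 163. Among those lower were Cbfa2t3, the corepressor ETO2, at 76.0 CPM in S0-low and 17.9 in S3, Runx1 at 39.0 and 6.01, and Lmo4, a relative of Lmo2, at 72.1 and 6.16. Of the E-protein partners, Tcf12 was also lower, at 46.8 and 7.71, and Tcf3, at 237 and 93.9 CPM, was not called on the non-globin scale. Ssbp2 and Ssbp3, which bind LDB1, were not called, with 107 and 79.8 CPM in S0-low and 76.8 and 50.7 in S3.

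Of the 5 other lineage factors, 3 had enough UMIs for S0-medium over S0-low and all 3 were called lower, beside 15.0% of all genes. Gata2, the factor that precedes GATA1, was 35.1 CPM in S0-low and 2.38 in S0-medium, Spi1 (PU.1) 70.3 and 7.0, and Fli1 35.1 and 1.37. Fli1 was 178 CPM and Gata2 99.0 in megakaryocyte-like cells, and Spi1 478 in myeloid-like cells. Without its named non-erythroid cells S0-low had 6.73 Gata1 UMIs per Gata2 UMI (5.75 to 7.92) in place of 4.95.

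Of the 9 other KLF genes, 5 were tested from S0-low to S3 in non-globin CPM, of which 2 were called higher, 2 lower and 1 neither, beside the same 15.5% and 59.8% of all genes. Klf6 was 6.06 CPM in S0-low and 22.4 in S3, and Klf9 16.3 and 0.768. Klf2 was 194.5 CPM in macrophage-like cells and 0.576 in S0-medium. Klf12 was listed without a UMI. Of the 6 NF-E2 partners and relatives, 5 were tested, 3 called higher and 0 lower, where 15.5% of all genes were higher and 59.8% lower. Mafg, a small MAF partner of NFE2, was 66.8 CPM in S0-low, 86.6 in S2 and 132 in S3, and Mafk, another, was 21.2 CPM in S0-low and 35.1 in S3. Bach1, which competes at the same elements, was 11.6 and 14.7 CPM and was the third gene called higher on the non-globin scale.

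The 12 corepressor genes were called lower in 7 cases, higher in 1 and neither in 4 from S0-low to S3 on that scale, beside 59.8% of all genes lower and 15.5% higher, with a median of 0.478 beside 0.543 for all genes. Kdm1a and Rcor1, the partners of GFI1B, were 50.3 and 43.5 CPM in S0-low and 11.6 and 9.28 in S3. Mbd3 and Chd4, of the NuRD complex that FOG1 binds, were 268 and 132 in S0-low and 34.1 and 23.1 in S3. Rbbp4 was the one called higher, with 143 and 322 CPM.

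Of the 10 listed genes that GATA1 or KLF1 activate, 9 were tested and all 9 were called higher in S3 than in S0-low in non-globin CPM, beside 15.5% of all genes, with a median of 32-fold. Alas2, the first enzyme of erythroid heme synthesis, was 33.3 CPM in S0-low, 752 in S2 and 2298 in S4/S5. Slc4a1, which encodes the anion exchanger band 3, was 14.2 and 760.2 in S0-low and S3, and Bcl2l1, a survival gene, 14.6 and 228. Epor, the erythropoietin receptor gene, had 85.6 CPM in S0-low, 155 in S1 and 99.3 in S3. Ahsp was not analysed here. The 4 genes listed as repressed, Kit, Myb, Myc and Gata2, were all called lower in S3, beside 59.8% of all genes, with a median of 0.102, and Kit was 61.8 CPM in S0-low, 8.0 in S1 and 2.39 in S2.

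Over the 6 stages and the 4 non-erythroid types, the 3 genes with the pattern most like each member were named by Pearson's r of the log2 non-globin level plus 10, across 6979 genes and 10 populations that share one library. Gata1 was most like Gfi1b, with r of 0.983, then Samd14 and Epor. Gfi1b was most like Cited4 (r of 0.991), Gata1 and Epor, and Zfpm1 most like Samd14 (0.981), Gpatch8 and Hif3a. Klf1 was most like Stx2 (0.992), Mylpf and Ninl, Klf3 like Hagh (0.987), 2700097O09Rik and Sh3yl1, and Klf13 like Hiat1 (0.964), Palb2 and Pspc1. Lmo2 was most like Mff (0.975), Nfatc2ip and Raly, Ldb1 like Luc7l (0.982), Cox8a and Chtop, and Nfe2 like Golph3l (0.967), Rbm38 and Akap13. Gata1 and Gfi1b were the only members among each other's nearest genes. Over the 6 stages alone, r was 0.67 for this pair, beside 0.96 for Gata1 and Klf1 and 0.80 for Gata1 and Zfpm1. The likeness of Gata1 and Gfi1b was thus weaker over the 6 stages alone than over all 10 populations.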

How the data were processed

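The authors mapped the reads of the cDNA library to mm10 with Cell Ranger and deposited raw UMI counts per gene and cell, and deposited raw antibody counts per cell for 10 antibodies, before quality filters. Whether the antibody counts were collapsed by molecular identifier was not given in the sources used here. The rows of unmatched antibody reads and of totals were left out.

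Both libraries came from 1 pool of livers, so there was no replicate and no test. Cells outside 300 to 5000 genes, or above 9% of mitochondrial UMIs, were dropped, and doublets were removed with Scrublet in scanpy 1.11.5. The cells, scaled to 10000 UMIs, were clustered (2000 variable genes, 16 components, 30 neighbours, Leiden resolution 0.8, leidenalg 0.10.2), and clusters were named from listed markers. Antibody counts were centred log ratios across cells. Cells above 73.6 summed counts of the 5 lineage antibodies (median plus 2 scaled MADs) were left out of the gates, classes of Ter119 and CD71 came from k-means (scikit-learn 1.9.0), and 208 lineage-low cells fell in no stage.

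A level is the mean over cells of the CPM. Intervals are 95%: gamma for levels, a conditional beta on effective counts for ratios of levels, exact conditional binomial for ratios between genes, and Clopper-Pearson for shares of cells (scipy 1.17.1). Genes count as called at a fold of 1.5 with at least 100 summed UMIs. The scripts were tested on simulated data. Genes named by likeness are the 3 with the highest r among genes with at least 500 UMIs. The genes named are the members, the listed partners and targets, the genes most like each member, and marker or leading genes that identify clusters. The members, the lists and the comparisons were chosen with earlier results of these data known. Other settings tried are given with their effect in the closing section.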

Additional observations from a re-analysis of the deposited data

How the results depend on the processing

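The number of members called moved most between S0-low and S0-medium, where it was 2, beside 19.8% of all genes called in either direction. It was 4 with CD71 terciles (beside 20.9%), 5 in UMIs per cell (33.4%) and 0 at a fold of 2 (9.61%). It was 6 with gates from a Gaussian mixture (27.6%), on antibodies scaled within each cell (24.7%), on log10 antibody counts (24.5%) or with lineage-high cells kept (28.9%). From S0-medium to S1 it was 0, beside 11.4%, and it was 1 with antibodies scaled within each cell (20.5%) and 1 without gene and mitochondrial limits (11.7%). It was 2 with the hepatocyte-like level subtracted, a setting without a share of all genes to set beside it, so this count cannot be judged. From S1 to S2 it was 3, beside 42%, and 1 at a fold of 2 (14.7%). From S2 to S3 it was 3, beside 68.8%, and it was 5 in UMIs per cell (84.8%), on antibodies scaled within each cell (80.6%) or on log10 antibody counts (76.6%), and 1 at a fold of 2 (33.7%). From S3 to S4/S5 it was 8, beside 74.9%, and 4 in non-globin CPM (29.9%). In the non-erythroid cells it was 7, beside 42.3%, and 3 at a fold of 2 (24%). The cause was not tested.

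Settings added after the data were seen gave, from S0-low to S0-medium, 4 with the clusters led by Rpgrip1 left out (beside 26.5% of all genes), 7 with these left out in UMIs per cell (55.2%), and 4 with the lineage limit set on a log scale (22.8%). Without these clusters it was 2 from S0-medium to S1 (13.4%), 1 in UMIs per cell (20.3%), and 6 from S2 to S3 in UMIs per cell (86.2%). Of 895 ratios of members recomputed in 20 other settings, 638 stayed within their counting interval and 257 did not. In 51 of the 895 the ratio went to the other side of 1, 19 of them in UMIs per cell or non-globin CPM. All but 1 of the 51 had not reached the fold of 1.5 to begin with. The one that had was Nfe2 in the non-erythroid cells, which went from above S0-medium to 0.859 times S0-medium without the megakaryocyte-like cells. No paired analysis was possible because each library has 1 sample. Among the stages, counting error was widest for Ldb1 and Klf13 in S4/S5, where they had 36 and 43 UMIs.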
